A study of Homo sapiens with 4 samples.

Results

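The antioxidant, thioredoxin and glutathione genes were examined in Kasumi-1 cells, a cell line established from acute myeloid leukemia (AML), with and without knockdown of ANP32B. A list of 35 redox genes was chosen by name, without a rule on measured values but with earlier results of these data known. Of these, 34 had a row in the table of 18567 genes, and all 34 reached the filter of at least 1 TPM in at least 2 of the 4 samples that 16817 genes passed. SOD2, the mitochondrial superoxide dismutase, was not analysed here.

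RNA was sequenced from 2 NC samples and 2 sh-ANP32B samples, so every group value below has n = 2. According to the labels the NC cells were untreated and carried no hairpin, but the study's methods name an sh-NC control hairpin, and the sources leave this unresolved. The sh-ANP32B cells expressed a short hairpin RNA against ANP32B, a nuclear phosphoprotein of the acidic leucine-rich family, delivered by lentivirus with puromycin selection. Which of the hairpins made for the study was used in each sample was not stated, and nothing says that samples of a group were separate cultures, so p-values measure only the spread between these samples. ANP32B itself was 384 and 392 TPM in NC against 51.8 and 41.2 TPM with the hairpin (limma adjusted p = 0.00516). Of the 10 myeloid blast markers listed, CD34 and MPO had no row under their symbols, so their levels are unknown. Over the 4 samples SPI1 was at 241 to 364 TPM and CEBPA at 292 to 477 TPM. RUNX1T1 was at 15.6 to 31.2 TPM and KIT at 1.55 to 3.41 TPM.

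Cells remove peroxides and repair oxidised proteins through a pair of linked systems that both draw electrons from NADPH. In the thioredoxin system, thioredoxin reductase reduces thioredoxin, which in turn reduces the peroxiredoxins and the methionine sulfoxide reductases. In the glutathione system, glutathione is made from amino acids, is used by glutathione peroxidases, glutaredoxins and glutathione transferases, and is reduced again by glutathione reductase. The transcription factor NRF2, encoded by NFE2L2, activates many of these genes, and KEAP1 directs NRF2 to degradation when oxidants are low. In myeloid cells these systems act beside oxidants that the cells make themselves.

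No redox gene reached an adjusted p under 0.05 between sh-ANP32B and NC (limma, 0 of 34), while 3.32% of all genes tested did. At an unadjusted p under 0.05 there were 7 of 34, 20.6% against 23.8% of all genes: GPX1 with a higher estimate, and PRDX1, PRDX4, TXN, TXNRD1, SOD1 and MSRA with lower ones. The largest positive estimate was for GPX1, a glutathione peroxidase, at 1498 ± 535 TPM (SD) in sh-ANP32B against 729 ± 45.4 TPM in NC. The 6 genes with lower estimates stood at 64.4% to 78.8% of their NC means, and 3 of them, PRDX1, TXN and TXNRD1, belong to the cytosolic thioredoxin system. TPM is scaled to transcript length and to the sum of each library, and in bulk samples fewer cells of a type and less RNA per cell cannot be told apart.

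Over the 34 genes, 22 estimates were negative and 12 positive, with a median log2 fold change of -0.12 against 0.08 over all genes tested. The median of the redox genes depended on 1 library and was 0.01 without sh-ANP32B replicate 1. In 18 genes the NC and sh-ANP32B samples did not overlap, 52.9% against 54.6% of all genes tested. These were 12 genes lower in both sh-ANP32B samples, 35.3% against a background of 21.4%, and 6 genes higher in both, 17.6% against 33.2%.

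At a looser adjusted p under 0.1, limma called 4 redox genes, GPX1 higher and PRDX1, TXN and SOD1 lower, 11.8% against 9.94% of all genes. By the criterion of the study's methods, a log2 fold change beyond 0.5 at an unadjusted p under 0.05, here taken from limma, 3 passed, GPX1 higher and PRDX1 and MSRA lower. That was 8.82% of the redox genes against 18.6% of all genes tested.

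The redox genes were abundant transcripts. Their median level was 86.3 TPM against 15.0 TPM over all genes tested, 33 of 34 lay above the median gene, and 16 were at 100 TPM or more as the mean of the 4 samples. Together they held 6467 and 6571 TPM in NC against 6452 and 7480 TPM in sh-ANP32B. Without GPX1 the sums were 5770 and 5810 TPM in NC against 5332 and 5604 TPM in sh-ANP32B, so the sum was higher than NC in 1 sh-ANP32B sample with GPX1 and lower in both without it.

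**Figure D1:**
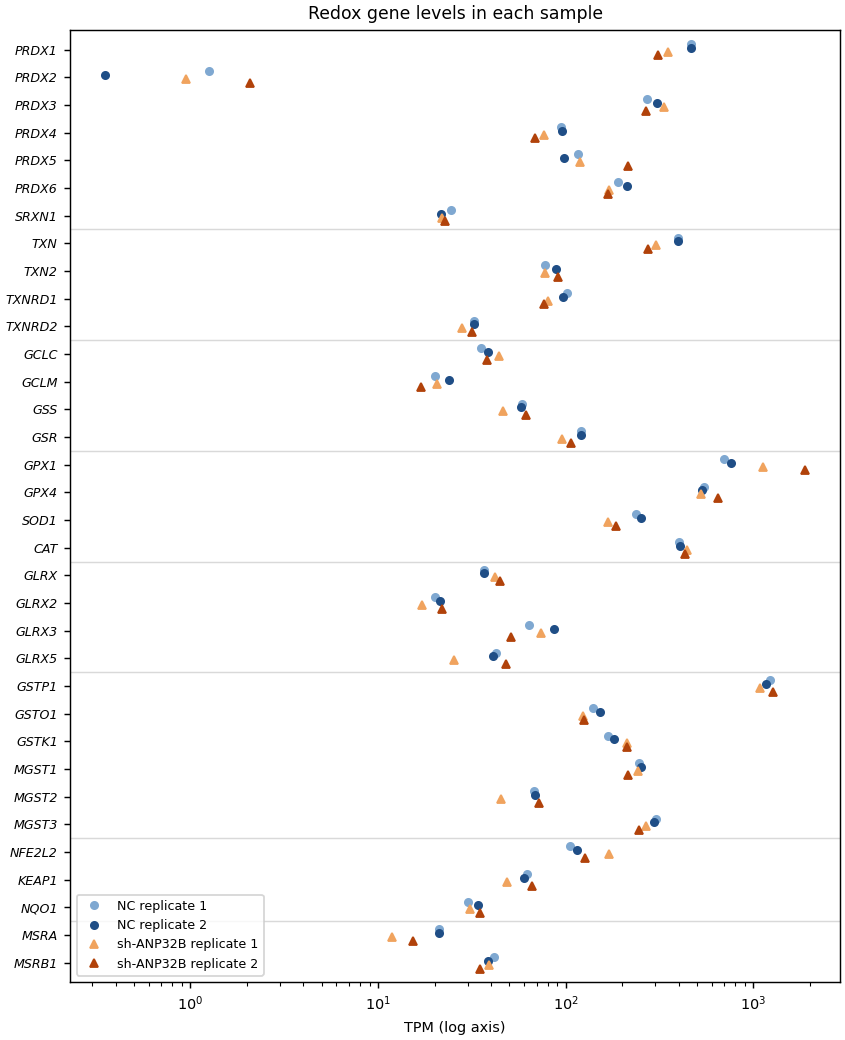
Level of each redox gene in TPM (log axis) in the 4 samples, circles for NC and triangles for sh-ANP32B, with lines between the functional groups. GPX1 and GSTP1 lie highest, PRDX2 lies near 1 TPM, and both triangles of GPX1 are to the right of its circles.

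The peroxiredoxins are thiol peroxidases that share the reduction of hydrogen peroxide among compartments. PRDX1, the abundant cytosolic member (chr1:45510914-45542732, hg38), was at 467 and 468 TPM in NC and at 349 and 309 TPM in sh-ANP32B. Both sh-ANP32B samples lay below both NC samples, and the log2 fold change was -0.51 ± 0.125 (SE) at a limma adjusted p of 0.0754. PRDX4, the member of the endoplasmic reticulum, was at 94.2 and 95.3 TPM in NC and at 76.6 and 68.2 TPM in sh-ANP32B, again without overlap (log2 fold change -0.38, limma adjusted p = 0.152). PRDX6, a peroxiredoxin with a single active cysteine, was at 191 and 212 TPM in NC and at 169.7 and 168 TPM in sh-ANP32B (log2 fold change -0.25, limma adjusted p = 0.284).

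The mitochondrial members had no lower estimate of this size. PRDX3, which resides in mitochondria, was at 272 and 305 TPM in NC and at 333 and 267 TPM in sh-ANP32B, with overlapping groups. PRDX5, found in mitochondria and peroxisomes, was at 116 and 98.3 TPM in NC and at 119 and 215 TPM in sh-ANP32B, so the groups were separate but the higher mean came from replicate 2 (log2 fold change 0.58, limma adjusted p = 0.252).

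PRDX2, a peroxiredoxin best known from red cells, was the lowest redox gene, at 1.26 and 0.352 TPM in NC and at 0.944 and 2.08 TPM in sh-ANP32B. It overlaps another gene on the same strand and has annotated pseudogenes, so its low value is uncertain. SRXN1, sulfiredoxin, which restores overoxidised peroxiredoxins, was at 24.4 and 21.6 TPM in NC and at 21.9 and 22.7 TPM in sh-ANP32B, with overlapping groups.

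TXN, cytosolic thioredoxin (chr9:110243810-110256507, hg38), was at 396 and 397 TPM in NC and at 304 and 274 TPM in sh-ANP32B. The groups were apart, at a log2 fold change of -0.46 ± 0.123 (SE) and a limma adjusted p of 0.0905. TXNRD1, the cytosolic reductase that recharges it, was at 102 and 97.2 TPM in NC and at 80.1 and 76.7 TPM in sh-ANP32B (log2 fold change -0.34, limma adjusted p = 0.177). Their mitochondrial counterparts are TXN2 and TXNRD2. TXN2 was at 78.0 and 88.5 TPM in NC and at 77.1 and 91.2 TPM in sh-ANP32B, with full overlap. TXNRD2 was at 32.4 and 32.5 TPM in NC and at 28.0 and 31.5 TPM in sh-ANP32B (log2 fold change -0.12, limma adjusted p = 0.679). After correction for GC content the estimates of TXNRD1 and TXNRD2 were alike, at -0.37 and -0.36.

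Because TPM is scaled by length, the level of a cytosolic member can be set against that of its paralog within each sample. PRDX1 stood at 1.72 and 1.53 times PRDX3 in NC and at 1.05 and 1.16 times in sh-ANP32B. TXN stood at 5.08 and 4.49 times TXN2 in NC and at 3.95 and 3.01 times in sh-ANP32B, and TXNRD1 at 3.14 and 2.99 times TXNRD2 in NC and at 2.86 and 2.43 times in sh-ANP32B. All 3 ratios were lower in both sh-ANP32B samples than in both NC samples. After correction for GC content the log2 difference between the pair was -0.58 for PRDX1 and PRDX3 and -0.35 for TXN and TXN2, but -0.01 for TXNRD1 and TXNRD2. These pairs were chosen after their values were seen, and no test of 2 samples against 2 was run, since an exact permutation test cannot give a two-sided p under 0.333.

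**Figure D2:**
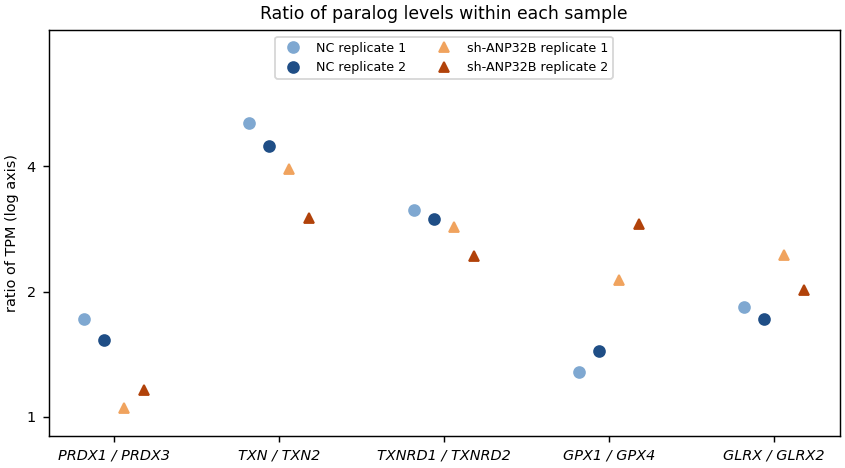
Ratio of TPM between paralogs within each sample (log axis), circles for NC and triangles for sh-ANP32B. The triangles lie below the circles for PRDX1 over PRDX3, TXN over TXN2 and TXNRD1 over TXNRD2, and above them for GPX1 over GPX4 and GLRX over GLRX2.

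Over the whole list, the 22 genes assigned to the cytosol or nucleus had 15 negative and 7 positive estimates with a median log2 fold change of -0.12. The 7 mitochondrial genes had 3 negative and 4 positive estimates with a median of 0.01, of which PRDX3 and TXN2 turned negative with median-of-ratios scaling, and the 5 genes of the endoplasmic reticulum, membranes or peroxisomes had 4 negative and 1 positive with a median of -0.22. After GC correction the medians were -0.26, -0.15 and -0.24, and 4 of the 7 mitochondrial genes had negative estimates. The median over all genes tested was 0.08 before that correction and -0.008 after it. Each gene was assigned to 1 compartment only, although some, such as PRDX5 and GSTK1, are found in more than 1. No test was made between compartments.

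None of the 4 enzymes that make and recycle glutathione was called, and their log2 fold changes lay between -0.25 and 0.15. GCLC, the catalytic subunit of the rate-limiting ligase, was at 35.5 and 38.5 TPM in NC and at 44.3 and 38.2 TPM in sh-ANP32B, and its modifier subunit GCLM was at 20.0 and 23.8 TPM in NC and at 20.5 and 17.0 TPM in sh-ANP32B. GSS, glutathione synthetase, was at 58.4 and 57.7 TPM in NC and at 46.3 and 61.7 TPM in sh-ANP32B. All 3 overlapped between the groups. GSR, glutathione reductase, was separate, at 121 and 120.0 TPM in NC and at 96.1 and 107 TPM in sh-ANP32B (log2 fold change -0.25, 95% interval -0.56 to 0.06).

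GPX1, the cytosolic selenoprotein that reduces hydrogen peroxide with glutathione (chr3:49357174-49358605, hg38), was at 697 and 761 TPM in NC and at 1119 and 1876 TPM in sh-ANP32B. Both sh-ANP32B samples lay above NC, yet they differed from each other by 0.74 on the log2 scale, against 0.13 between the NC samples. The log2 fold change was 0.99 ± 0.237 (SE), with a 95% interval of 0.43 to 1.56 and a limma adjusted p of 0.0724. The log2 fold change was 0.62 without sh-ANP32B replicate 2 and 1.36 without sh-ANP32B replicate 1. Its annotated pseudogene GPX1P1, which can share reads with it, was at 31.8 and 21.1 TPM in NC and at 51.0 and 60.1 TPM in sh-ANP32B.

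GPX4, the selenoprotein that reduces lipid hydroperoxides in membranes, was at 545 and 529.9 TPM in NC and at 526 and 645 TPM in sh-ANP32B, with overlapping groups. The ratio of GPX1 to GPX4 was therefore 1.28 and 1.44 in NC and 2.13 and 2.91 in sh-ANP32B. The 5 selenoproteins on the list, GPX1, GPX4, TXNRD1, TXNRD2 and MSRB1, did not share a direction, with 2 positive and 3 negative estimates from -0.34 to 0.99, of which GPX4 turned negative after correction for GC content.

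SOD1, the copper and zinc superoxide dismutase of the cytosol (chr21:31659666-31668931, hg38), was at 238 and 252 TPM in NC and at 169 and 185 TPM in sh-ANP32B. The groups were apart, at a log2 fold change of -0.47 ± 0.125 (SE) and a limma adjusted p of 0.0891. CAT, the peroxisomal catalase, was at 400.5 and 408 TPM in NC and at 441 and 433 TPM in sh-ANP32B. The catalase samples did not overlap, but the log2 fold change was 0.11 (limma adjusted p = 0.617).

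Glutaredoxins remove glutathione from proteins, and GLRX3 and GLRX5 also act in iron handling. GLRX, the cytosolic member, was at 36.9 TPM in both NC samples and at 42.1 and 44.4 TPM in sh-ANP32B (log2 fold change 0.22, limma adjusted p = 0.390). The other 3 overlapped between the groups. GLRX2 was at 20.1 and 21.4 TPM in NC and at 17.2 and 22.0 TPM in sh-ANP32B. GLRX3 was at 63.8 and 87.1 TPM in NC and at 73.8 and 51.4 TPM in sh-ANP32B. GLRX5, needed for mitochondrial iron-sulfur clusters, had the widest gap of all redox genes between its sh-ANP32B samples on the log2(TPM + 1) scale, 0.90, at 25.5 and 48.3 TPM beside 42.6 and 41.0 TPM in NC.

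Glutathione transferases join glutathione to reactive compounds. GSTP1 was the most abundant of the 6, at 1231 and 1161 TPM in NC and at 1079 and 1276 TPM in sh-ANP32B, and the groups overlapped (log2 fold change -0.03, 95% interval -0.35 to 0.30). GSTK1, of mitochondria and peroxisomes, was at 169 and 179.9 TPM in NC and at 212 and 213 TPM in sh-ANP32B, the only one of the 6 with a positive estimate (log2 fold change 0.28, limma adjusted p = 0.217). GSTO1, at 139.6 and 152 TPM in NC and at 123 and 125 TPM in sh-ANP32B, was separate in the other direction.

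The membrane-bound transferases gave small negative estimates. MGST1 was at 245 and 251 TPM in NC and at 244 and 215 TPM in sh-ANP32B. MGST3 was at 302 and 295 TPM in NC and at 267 and 247 TPM in sh-ANP32B (log2 fold change -0.22, limma adjusted p = 0.334). MGST2 overlapped, at 68.1 and 69.0 TPM in NC and at 45.3 and 71.6 TPM in sh-ANP32B.

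NFE2L2, which encodes NRF2, was at 106 and 115 TPM in NC and at 170.0 and 127 TPM in sh-ANP32B (log2 fold change 0.41, limma adjusted p = 0.212). The groups did not overlap, but the fold change was 0.19 without sh-ANP32B replicate 1 and 0.62 without sh-ANP32B replicate 2. NFE2L2 overlaps genes on the opposite strand, and whether the counting used strand was not stated. KEAP1, its inhibitor, was at 62.2 and 59.8 TPM in NC and at 48.6 and 66.1 TPM in sh-ANP32B. NQO1, a quinone reductase often used as a readout of NRF2, was at 30.0 and 34.1 TPM in NC and at 30.7 and 34.9 TPM in sh-ANP32B (log2 fold change 0.03, 95% interval -0.35 to 0.42).

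NRF2 binds antioxidant response elements, whose core is TGACNNNGC. The core was searched on both strands in RefSeq promoter windows (GRCh38.p14), from 250 bases before to 50 after each RefSeq start. It was present in 13.3% of all 35116 windows and in 7 of 37 windows, 18.9%, of the 25 redox genes that had one. The 6 genes with the core were TXNRD1, GCLM, GSTP1, GSTO1, MGST1 and KEAP1. Stretches before the RefSeq start are shown for the pathway members TXNRD1, GCLM and GSTP1, on the strand of the gene, 5′ to 3′, with the core in capitals (in GCLM it reads on the opposite strand). GENCODE places the start of GSTP1 and GCLM farther upstream, so that 27 and 26 bases of their stretches lie inside the GENCODE gene, for GSTP1 with the whole core and for GCLM with its last base.
GSTP1 (chr11:67583706-67583768, plus strand): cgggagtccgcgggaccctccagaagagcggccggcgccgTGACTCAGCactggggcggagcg
TXNRD1 (chr12:104215640-104215728, plus strand): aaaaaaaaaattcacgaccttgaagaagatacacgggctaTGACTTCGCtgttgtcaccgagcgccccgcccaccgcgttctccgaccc
GCLM (chr1:93909431-93909504, minus strand): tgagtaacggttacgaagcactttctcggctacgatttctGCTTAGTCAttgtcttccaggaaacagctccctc

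All 6 genes with the core had negative estimates, from -0.34 for TXNRD1 to -0.03 for GSTP1, beside 22 of all 34 redox genes. The estimate for NFE2L2 itself was positive, and a relation between the core and the estimates was not tested. None of the 6 was called by limma in the deposited values, TXNRD1 was called lower after GC correction, and the directions of GSTP1 and KEAP1 turned when sh-ANP32B replicate 1 was left out, that of GSTP1 also without NC replicate 1 and with quantile normalization. A match to the core describes these letters and is not evidence of binding.

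The methionine sulfoxide reductases repair oxidised methionine with electrons from thioredoxin. MSRA was at 21.1 TPM in both NC samples and at 11.8 and 15.4 TPM in sh-ANP32B, the largest negative estimate on the list (log2 fold change -0.61 ± 0.192 SE, limma adjusted p = 0.124). MSRB1, which is a selenoprotein, had means of 40.2 ± 2.16 TPM (SD) in NC and 37.0 ± 2.83 TPM in sh-ANP32B, with overlapping groups.

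The sh-ANP32B samples were less alike than the NC samples in 27 of 34 redox genes. The median SD of log2(TPM + 1) within a group was 0.0575 in NC and 0.138 in sh-ANP32B for these genes, and 0.104 and 0.212 over all genes tested. The difference between the sh-ANP32B samples moved with the GC content of the transcript. Its Spearman rho with GC content was 0.58 over the 34 redox genes and 0.58 over all genes with a GC value, as a description in which all points share the same libraries. The difference between the NC samples ran the other way, with a rho of -0.47 over the redox genes. GPX1, at 64.1% GC, and PRDX5, at 60.6%, were higher in sh-ANP32B replicate 2 by 0.74 and 0.85, and NFE2L2, at 40.5%, was lower there by 0.42, on the log2 scale. Transcripts of the mitochondrial genome took 12.9% and 13.1% of TPM in NC and 11.4% and 8.43% in sh-ANP32B, and their part in the results was not tested beyond leaving them out.

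**Figure D3:**
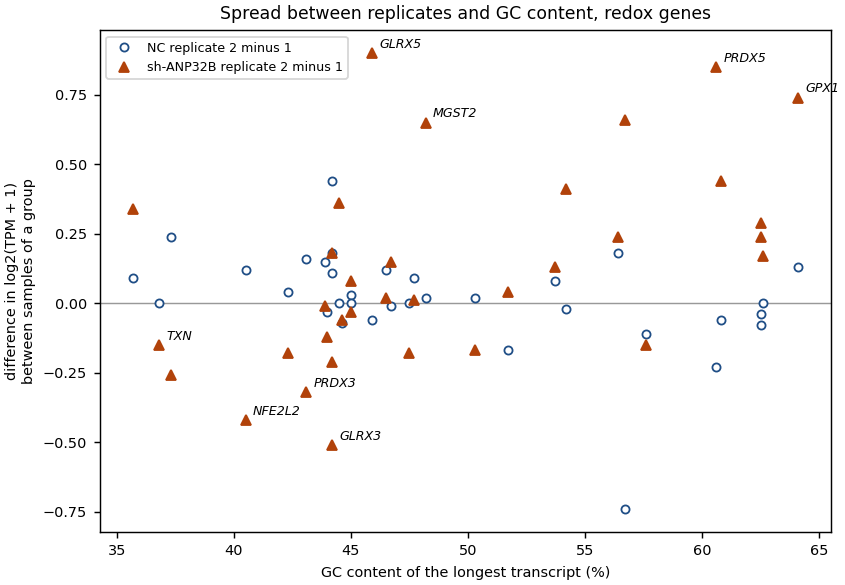
Difference in log2(TPM + 1) between replicate 2 and replicate 1 of a group against the GC content of the longest annotated transcript, for the 34 redox genes. Triangles (sh-ANP32B) lie higher at high GC, with GPX1 at 0.74 and PRDX5 at 0.85, and circles (NC) spread less apart from PRDX2 at -0.74.

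After a smooth fit on GC content was removed in each sample, limma called 7 of the 34 redox genes at an adjusted p under 0.05, 20.6% against 16.3% of the 15427 genes with a GC value. GPX1 (log2 fold change 0.74, adjusted p = 0.0209) and NFE2L2 (0.39, adjusted p = 0.0341) were called higher by limma in that fit. PRDX1 (-0.55, adjusted p = 0.0111), TXN (-0.50, adjusted p = 0.0201) and SOD1 (-0.59, adjusted p = 0.00891) were called lower, together with PRDX4 (-0.46, adjusted p = 0.0247) and TXNRD1 (-0.37, adjusted p = 0.0387). Each of these 7 genes had the same direction without the correction. The correction also lowered the median estimate of the redox genes from -0.12 to -0.25. The median over all genes in the fit was lowered as well, from 0.08 to -0.008. GPX4 and TXN2 turned from positive to negative estimates.

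**Figure D4:**
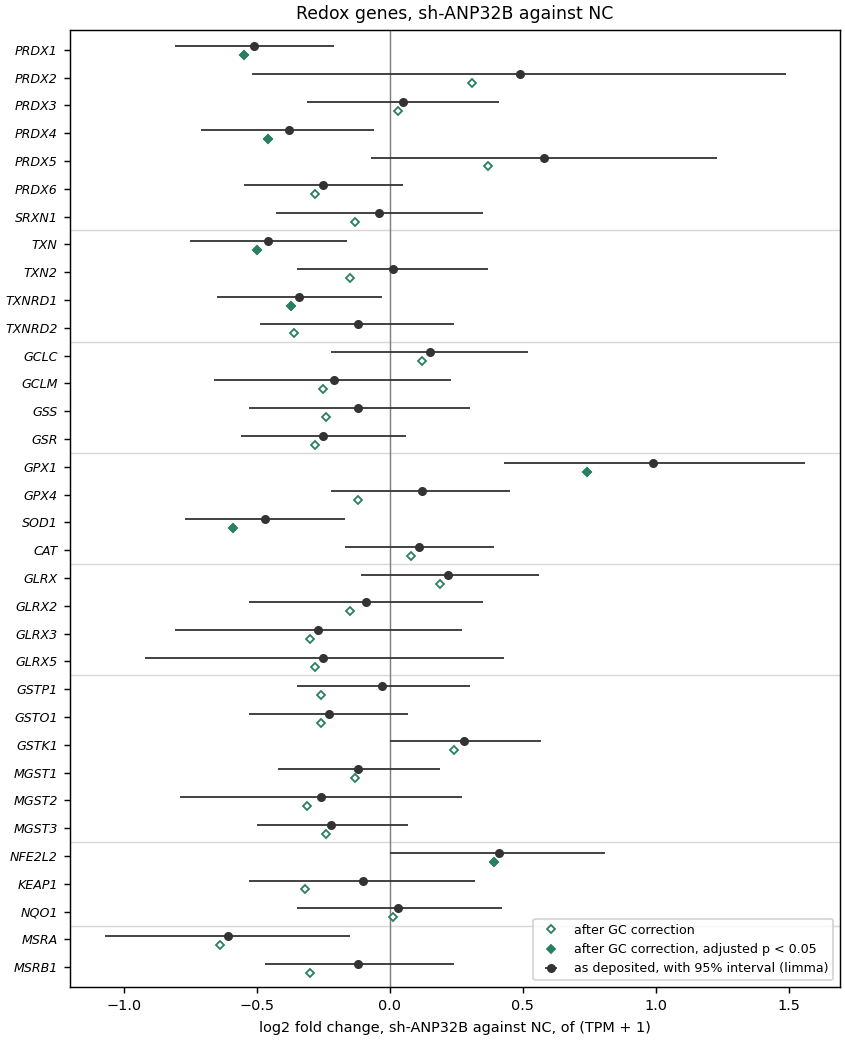
Log2 fold change of TPM + 1 for sh-ANP32B against NC, black points with 95% intervals from limma for the deposited values and diamonds after GC correction, filled where the adjusted p was under 0.05. GPX1 at 0.99 lies farthest to the right and MSRA at -0.61 farthest to the left.

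Around the redox genes, 119 further genes of 7 related lists were tested, and limma called 4 higher and 2 lower at an adjusted p under 0.05, 5.04% against 3.32% of all genes tested. After GC correction 14 were called higher and 20 lower, so the balance of directions turned. It also turned over all genes, from 360 higher and 199 lower to 1145 higher and 1376 lower. In that fit 16.3% of all genes with a GC value were called. Among 15 genes that supply NADPH, 2 were called lower and none higher. MTHFD1, a folate enzyme that makes NADPH in the cytosol, fell from 97.5 and 114 TPM in NC to 33.4 and 42.4 TPM (log2 fold change -1.46, limma adjusted p = 0.0261). IDH2, the mitochondrial isocitrate dehydrogenase, fell from 229 and 232 TPM to 129.7 and 151 TPM, or by 0.71 on the log2 scale.

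Among 22 other targets and partners of NRF2, 2 were called higher and none lower, whereas after GC correction 4 were called higher and 3 lower. FTH1, the ferritin heavy chain that stores iron, rose from 1597 and 1594 TPM in NC to 3117 and 3031 TPM (log2 fold change 0.95, limma adjusted p = 0.0304). MAFF, a small partner protein of NRF2, rose from 13.6 and 16.3 TPM to 32.4 and 35.2 TPM. This list had 16 positive and 6 negative estimates and a median log2 fold change of 0.24, beside 0.03 for the member group of NFE2L2, KEAP1 and NQO1.

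Of 18 genes of cystine and glutathione transport and turnover, 1 was called higher. This was OPLAH, which opens 5-oxoproline to glutamate in glutathione turnover, at 8.03 and 8.74 TPM in NC against 20.2 and 26.1 TPM in sh-ANP32B. Of 9 other glutathione transferases and peroxidases, 1 was called higher, ALOX5AP, a membrane protein of leukotriene synthesis related to the microsomal transferases, at 148 and 146 TPM in NC against 301 and 303 TPM in sh-ANP32B. In the other 3 lists limma called none at an adjusted p under 0.05. At an unadjusted p under 0.05, beside 23.8% of all genes tested, it called 5 of 26 other thioredoxin-fold proteins (19.2%), 4 of 18 selenoproteins and factors of selenocysteine synthesis (22.2%) and 1 of 11 genes of ferroptosis and lipid peroxidation (9.09%). At the same threshold it called 11 of 22 other NRF2 targets and partners, 9 of 18 genes of cystine and glutathione turnover, 7 of 15 NADPH genes and 3 of 9 other transferases and peroxidases.

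**Figure D5:**
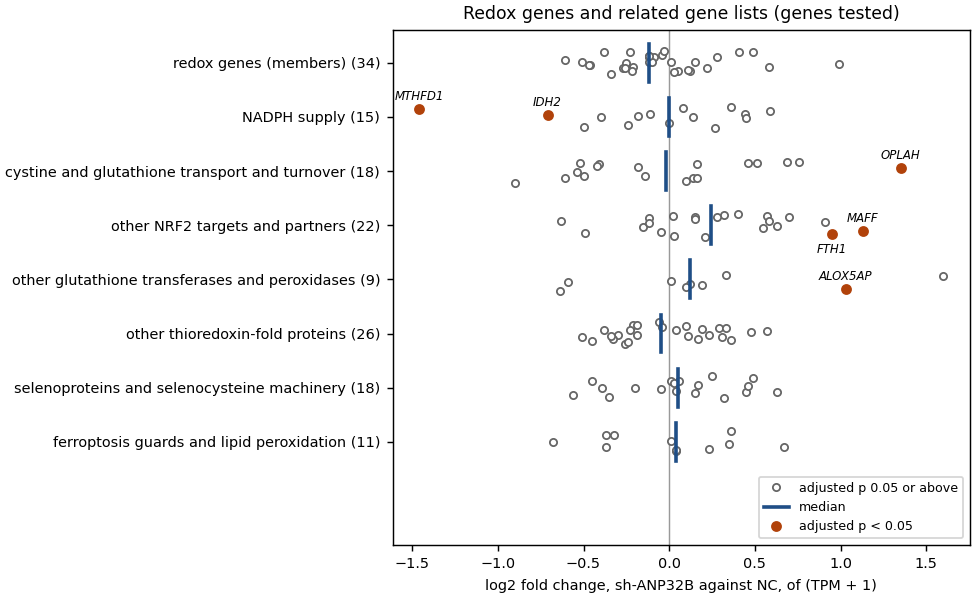
Log2 fold change of TPM + 1 for sh-ANP32B against NC of each gene tested, for the redox genes and 7 related lists, with bars at the medians and filled points where the limma adjusted p was under 0.05. No redox gene is filled, and 6 of the 119 related genes are.

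Markers of maturing monocytes and granulocytes and markers of myeloid blasts were also compared between the groups. Of 15 maturation markers listed, 4 had no row. All 11 maturation markers tested had positive estimates, with a median log2 fold change of 0.86, although the groups overlapped for CSF1R and MNDA. Among all 16817 genes tested, 9741 had positive estimates. Limma called 3 of the 11 higher at an adjusted p under 0.05, LYZ and CSF3R among them, beside 3.32% of all genes tested. The summed level of the 11 was 1014 and 1063 TPM in NC against 1881 and 1919 TPM in sh-ANP32B. All 8 blast markers tested also had positive estimates, with a median of 0.46, but none was called. The part of either set in the values of GPX1, FTH1 and the other genes above was not tested. Of 13 erythroid markers 2 had a row, EPOR and KLF1, and their sum was 10.2 and 8.20 TPM in NC against 6.19 and 9.89 TPM in sh-ANP32B. Of 5 lymphoid markers tested, limma called CD2 higher, at 1.65 and 1.57 TPM in NC against 9.48 and 9.25 TPM in sh-ANP32B.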

How the data were processed

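Sequencing of RNA from 4 Kasumi-1 samples was compared between NC and sh-ANP32B. The authors aligned reads to hg38 with HISAT2 2.0.5, per the submitters' processing notes, and deposited TPM values; the program that made the TPM, its annotation, any filter and the use of strand were not given in the sources used here. TPM keeps no depth, so the depth of each sample is unknown and no counting interval was computed.

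Ensembl IDs were matched to GENCODE v44 for symbols, positions and GC content (16986 of 18567 matched). Values of genes that reached 1 TPM in 2 or more samples were converted to log2(TPM + 1), a scale that understates the change of low genes, and compared by limma 3.58.1 with an abundance trend in R 4.3.3. Two-sided p-values received Benjamini-Hochberg adjustment over 16817 genes. GC correction removed a loess fit (span 0.3) in each sample. The test was checked on simulated data with the same spread in both groups. In each run 200 of 16817 genes were changed, drawn only from the more abundant genes. The test recovered 31.9% of genes changed by 1 on the log2 scale and 94.2% of those changed by 2. Of its calls 4.81% were false. The estimates of the redox genes ran from -0.61 to 0.99. The simulation changed no gene of low level, so its recovery rates do not cover such genes. It did not include the wider spread of the sh-ANP32B samples or the relation of that spread to GC content. Alternatives were other pseudocounts, filters, scalings, variance models, a replicate block and leaving out each sample. All redox genes and the called genes of the related lists, at most 3 in each direction per list, were named; GPX1P1 and the cell type markers given were named after their values were seen. The redox genes and gene lists were chosen with earlier results of these data known. Tables and figures were made with Python 3.11.15, pandas 2.3.3, numpy 2.4.6 and matplotlib 3.10.9.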

Additional observations from a re-analysis of the deposited data

How the results depend on the processing

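The direction of 23 of the 34 redox genes was kept in every one of 14 alternatives, and 11 turned in at least 1. The count of all genes called was 559 as reported, 2521 after GC correction, 1473 with the replicate block, 1800 with the block and GC correction, and 273 to 4079 when single samples were left out. Without the abundance trend limma called 0 genes (3701 at an unadjusted p under 0.05, 5 of them redox genes), and ANP32B at -3.04 had an adjusted p of 0.0929. The count of redox genes called was 0 as reported, 7 after GC correction, 1 with the replicate block, 5 with the block and GC correction, 4 at an adjusted p under 0.1, and 0 to 10 when single samples were left out. The 10 were without sh-ANP32B replicate 1 and 9 without sh-ANP32B replicate 2. In both, the lone sample was assumed to vary like the NC samples, whose spread was smaller. Of the 119 genes of the related lists 6 were called as reported, 34 after GC correction, 20 with the block and GC correction, 0 without the abundance trend, 27 by the study's criterion, and 3 to 43 when single samples were left out. By the study's criterion 3 redox genes passed as reported, 5 with median-of-ratios scaling, without mitochondrial genes, after GC correction or with the block and GC correction, 7 with no fold minimum, and 1 to 6 when single samples were left out. In the fit as reported 18.6% of all genes tested passed the study's criterion. The median log2 fold change of the redox genes was -0.12 as reported and -0.25 after GC correction with or without the block. It was -0.13 to 0.01 when single samples were left out. Over all genes the median was 0.08 as reported and -0.008 after GC correction with or without the block.

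The estimates that turned were near 0 or rested on 1 sample. TXN2 was -0.08 with median-of-ratios scaling, -0.07 with quantile normalization, -0.04 without mitochondrial genes and -0.15 after GC correction with or without the block. NQO1 was -0.06, -0.03 and -0.01 under the first 3 of these, PRDX3 was -0.04 with median-of-ratios scaling, GSTP1 was 0.03 with quantile normalization, and GPX4 was -0.12 after GC correction with or without the block. When single samples were left out, the ranges were -0.11 to 0.13 for TXN2, -0.06 to 0.13 for NQO1, -0.11 to 0.21 for PRDX3, -0.15 to 0.09 for GSTP1, -0.03 to 0.26 for GPX4 and -0.13 to 0.04 for SRXN1. They were -0.32 to 0.09 for GSS, -0.26 to 0.08 for GLRX2, -0.69 to 0.20 for GLRX5, -0.59 to 0.06 for MGST2 and -0.32 to 0.11 for KEAP1. The cause was not tested.

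The replicate numbers were not shown to pair the samples, as samples with the same number did not deviate together from their groups (Pearson r = -0.0925 across genes). The replicate block changed the call of 1 redox gene, GPX1 (limma adjusted p = 0.000187). With 2 samples per group and no depth in TPM, a change that fails the threshold is not shown to be absent.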
